A study of Ctenopharyngodon idella with 6 samples.

Results

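The miRNAs described here are those of the families miR-146 and miR-155 in plasma exosomes of grass carp (Ctenopharyngodon idella). Every entry of the known miRNA table named miR-146 or miR-155 was taken, whatever its species prefix, letter or arm. This gave 37 of the 2925 entries, of which 26 are 5p entries of miR-146, 2 are 3p entries of miR-146 and 9 are 5p entries of miR-155. The grass carp were 10 months old and came from 1 crowded pond, where some fish had grown large and others had stayed small. Small RNA from plasma exosomes was sequenced in 3 libraries of large fish (L1, L2 and L3) and 3 libraries of small fish (S1, S2 and S3), with no treatment other than the shared rearing. Plasma of large fish was pooled in pairs and that of small fish in larger pools, so the size of the pool and the size of the fish cannot be told apart, and the spread between libraries is a spread between pools. The sources used here give neither strain nor sex. Values are CPM, the counts of an entry scaled to 1000000 miRNA counts of its library, from library totals of 5272418 counts (L1) to 11524535 counts (S2). These totals run over all names, so a read counted under several names enters them more than once.

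Members of both families are made by many cells of the blood when inflammatory signalling is switched on. In mammals, NF-kappaB raises the transcription of miR-146a, which represses the adaptors TRAF6 and IRAK1 of toll-like receptor signalling and so works as a brake on it. miR-155 comes from a noncoding transcript named BIC, rises in activated macrophages and lymphocytes of mammals, and represses SOCS1 and SHIP1, which are themselves brakes on cytokine signalling. Vesicles in plasma come from many cell types, so more vesicles of 1 cell type and more miRNA in each vesicle cannot be told apart in these libraries.

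The sequences decide what the names can separate, so those of the main forms are shown as the deposited table gives them, from 5′ to 3′, with the seed (bases 2 to 8, which pairs with the target mRNA) in capitals.
dre-miR-146b: tGAGAACTgaattccaagggtg
ssa-miR-146d-5p: tGAGAACTgaattccaagggtt
oan-miR-146a-5p: tGAGAACTgaattccacgggtt
mmu-miR-146a-5p: tGAGAACTgaattccatgggtt
dre-miR-146a: tGAGAACTgaattccatagatgg
ssa-miR-146b-5p: tGAGAACTgaagtccatagatgg
xtr-miR-146a: tGAGAACTgaattccataggtt
hsa-miR-146b-5p: tGAGAACTgaattccataggctg
gga-miR-146c-5p: tGAGAACTgaattccatggactg
gga-miR-155: tTAATGCTaatcgtgatagggg
mmu-miR-155-5p: tTAATGCTaattgtgataggggt
cin-miR-155: tTAATGCTaatagtgataggg
ssa-miR-146a-3p: aTCTATGGgctcagttcttctgg

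All 26 entries of miR-146-5p carried the seed GAGAACT and all 9 entries of miR-155-5p the seed TAATGCT, and 0 entries outside the families carried either. The miR-146-5p entries also shared the body of the molecule, because 25 of the 26 had the same first 16 letters and differed after them. Counted from 1 at the 5′ end and with the base of dre-miR-146b first, dre-miR-146a differed by A17T, G18A and G20A, and ssa-miR-146d-5p by G22T alone. The letters of the names do not follow the sequence between species. For example, mmu-miR-146a-5p differed from dre-miR-146b at 2 positions and from dre-miR-146a at 3. Names are therefore used here as labels of a sequence.

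Several names held the same counts. The 37 entries made 21 sets with the same value in all 6 libraries, and the 9 miR-155 entries made only 3. The set of efu-miR-155 held 7 names, although mmu-miR-155-5p has a different middle base (C12T, with the base of efu-miR-155 first). A set is called by its zebrafish (dre) name where it has one and otherwise by its alphabetically first name. The values of different sets are not independent either, since a read can be counted under several similar names.

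Both families were present in all 6 libraries. The library L2 stood apart from the other libraries for dre-miR-146b and the forms nearest to it, and those results are given with and without it. With 1 entry standing for each family, that of the highest mean, miR-146 ranked 5 and miR-155 ranked 52 of 439 families. In the large fish libraries miR-146 ranked 6 in L1, 2 in L2 and 5 in L3, and in the small fish libraries it ranked 10 in S1 and 8 in S2 and S3. The corresponding ranks of miR-155 were 42, 36 and 43 in L1 to L3 and 61, 63 and 53 in S1 to S3. The entries standing for both families thus ranked higher in every large fish library. For miR-146 this entry was dre-miR-146b, and the rank does not describe dre-miR-146a, whose groups overlapped and which was above dre-miR-146b in S1 and S3. For miR-155 the ranks separated the groups but the CPM values did not, with efu-miR-155 at 231 CPM in S3 and 203 CPM in L3. The share of all families whose ranks separate the groups is not given. The plot of CPM by library shows the forms of miR-146 spread over more than 4 powers of 10, while the 3 sets of miR-155 stayed close together.

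**Figure D1:**
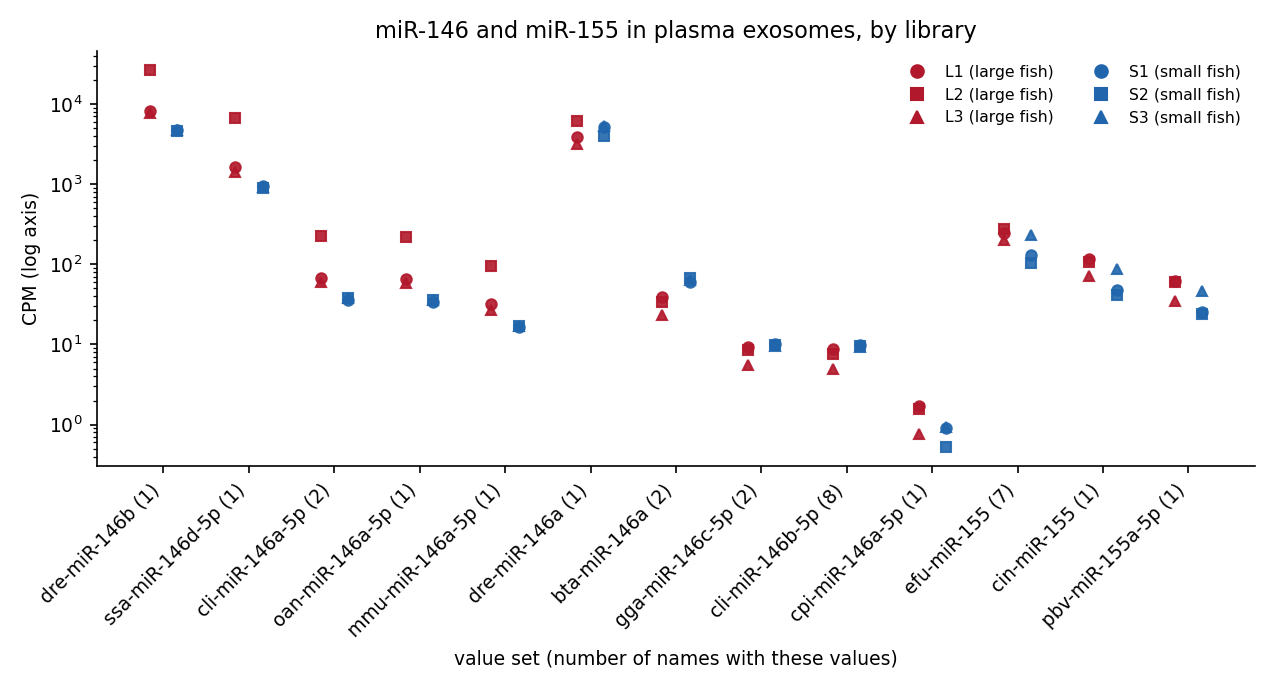
CPM on a log axis for 13 sets of miR-146-5p and miR-155-5p, with 1 point for each library, red for large fish and blue for small fish. The number of names in a set stands in parentheses. The 3 red points lie above the 3 blue points for the first 5 sets from the left, with L2 highest, and below them for bta-miR-146a.

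The question of the comparison is which miRNAs of the exosomes differ between large and small fish. Values were compared on the log2(CPM + 1) scale with limma, as the level in large fish minus that in small fish. A filter of 1 CPM in 3 or more libraries left 1807 entries, and p values were adjusted over all of these by the Benjamini-Hochberg method. To pass, an entry needed a fold of 1.5 or more and an adjusted p no higher than 0.05. Of the 37 members, 35 entries in 19 sets were tested, and cpi-miR-146a-5p and gmo-miR-146-3p had too few counts. With limma, 0 of the 35 were higher in large fish, beside 2.82% of all tested entries, and 3 entries in 2 sets were lower, beside 14.2% of all tested entries. At an unadjusted p below 0.05 there were 7 higher members, dre-miR-146b and the forms nearest to it, and 3 lower members. With identical entries counted once these were 6 and 2. The share of all entries at this threshold is not given, so these counts are not read as a result. The quasi-likelihood test of edgeR also called 0 members higher, as did its bias-corrected form (beside 1.33% and 5.26% of all entries). The exact test of edgeR called 7, all of miR-146 (beside 8.02%), and DESeq2 called 8, of which 7 were miR-146 and 1 was miR-155 (beside 9.68%). After quantile normalization limma called 9, of which 1 was miR-146 and 8 were miR-155 (beside 7.64%). These 8 were cin-miR-155 and the 7 names of the efu-miR-155 set, which share their counts. The 7 entries of miR-146 called by the exact test and DESeq2 were dre-miR-146b and the forms nearest to it. Among these, cli-miR-146a-5p and ggo-miR-146a share their counts. The members called higher thus depend on the tool and the scaling. The 3 lower calls were made by limma on the values as deposited. Members called lower were 0 with the quasi-likelihood test (beside 1.22% of all entries), its bias-corrected form (8.19%), the exact test (11.4%), DESeq2 (10.8%), TMM scaling (9.13%), quantile normalization (5.26%) and no filter (6.46%). The groups of libraries did not overlap for 21 of the 35 entries, 7 with large fish above and 14 with large fish below small fish, beside 40.1% of all tested entries. Many of these entries share their counts, and by sets there were 11 of 19, 6 above and 5 below.

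The whole table leaned towards small fish on the CPM scale, with a median log2 fold change of -0.26 over all tested entries, and 68% of them were below 0. The median of the 26 tested miR-146 entries was -0.34, with 8 above 0 and 18 below. Many of these entries share their counts. By sets the median of miR-146 was -0.19, with 7 of 16 above 0 and 9 below. All 9 miR-155 entries, which made 3 sets, were above 0, with a median of 0.71 by entries and by sets. The median of the miR-146 entries hides sequence groups, as the plot of fold changes shows. On the values as deposited, limma placed these groups on opposite sides of 0. Of the sets below 0, only bta-miR-146a and xla-miR-146a-5p stayed below 0 under every alternative setting.

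**Figure D2:**
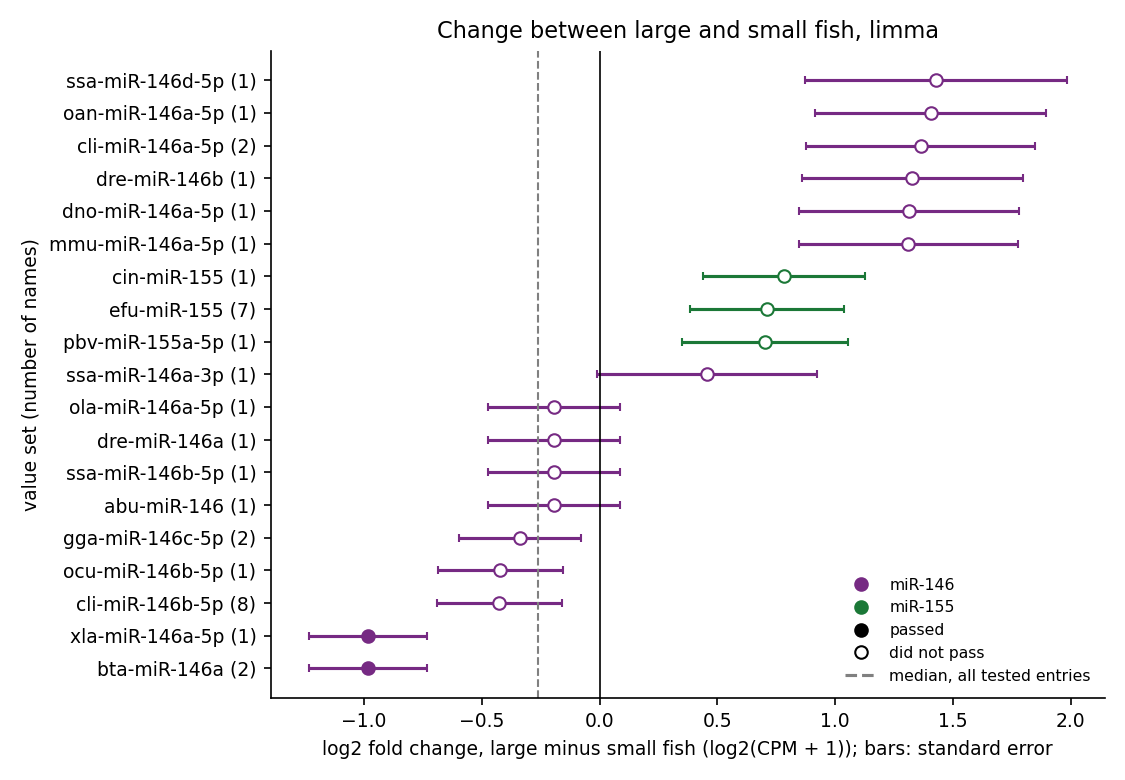
Log2 fold change (large minus small fish, log2(CPM + 1), limma) with its standard error for the 19 tested sets, purple for miR-146 and green for miR-155. Filled points passed. The 6 sets at the top, dre-miR-146b among them, lie between 1.31 and 1.43 and did not pass, the 3 miR-155 sets lie between 0.70 and 0.78, and the filled points at the bottom are xla-miR-146a-5p and bta-miR-146a. The dashed line is the median of all tested entries, -0.26.

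The most abundant member was dre-miR-146b, whose level was higher in every large fish library than in any small fish library. It was at 8078 CPM in L1, 26878 in L2 and 7721 in L3, and at 4737 CPM in S1, 4670 in S2 and 4791 in S3. The groups did not overlap, and L2 stood far above the other large fish, at 3.40 times the mean of L1 and L3. In L2 it took 2.69% of the counts summed over all names, against 0.467% to 0.479% in the small fish libraries. A read can enter this sum under several names. The means were 14226 ± 10959 CPM in large fish and 4732 ± 60.5 CPM in small fish (SD, n = 3), and the coefficient of variation was 77.0% between the large fish pools and 1.28% between the small fish pools. The log2 fold change was 1.33 (SE 0.47), or 1.59 above the median of all entries, with a 95% interval of 0.23 to 2.43 and an adjusted p of 0.0949 (limma). The difference therefore did not pass. Without L2 the log2 fold change was 0.74 with an adjusted p of 0.0597, so L2 carried much of its size but the other 2 large fish pools, with a mean of 7899 CPM, were still 1.67 times the mean of small fish.

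The next form, ssa-miR-146d-5p, differs from dre-miR-146b only in its last letter and had the same pattern. The large fish libraries L1 to L3 held 1643, 6646 and 1423 CPM and the small fish libraries S1 to S3 held 963, 891 and 927 CPM. L2 was again the highest, at 4.33 times the mean of L1 and L3, and the groups did not overlap. The log2 fold change was 1.43 (SE 0.55) with an adjusted p of 0.126 (limma). In each library ssa-miR-146d-5p stood at 18.4% to 24.7% of dre-miR-146b, and the small fish libraries, at 19.1% to 20.3%, lay within the range of the large fish libraries. Without L2 its log2 fold change was 0.72.

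Rarer forms carry GGGT near the 3′ end like dre-miR-146b but differ from it at base 17. cli-miR-146a-5p, which shares its counts with ggo-miR-146a (A17T), was at 67.7, 223 and 60.0 CPM in large fish and 35.8, 37.5 and 38.0 CPM in small fish. oan-miR-146a-5p, with A17C and G22T, was at 65.6, 221 and 59.1 CPM in large fish and 34.0, 35.7 and 36.3 CPM in small fish. mmu-miR-146a-5p was at 31.7, 95.9 and 26.7 CPM in large fish and 16.8, 16.9 and 17.1 CPM in small fish, and dno-miR-146a-5p differed from it by 1 count in S2. None of the 4 sets passed, with log2 fold changes of 1.31 to 1.41 and adjusted p of 0.0909 to 0.0973 (limma). All 4 repeated the high value in L2, and without L2 the log2 fold changes were 0.75 to 0.80.

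These rare forms kept a fixed proportion to dre-miR-146b. The level of dre-miR-146b differed 5.76-fold between its highest and lowest library. cli-miR-146a-5p nevertheless stayed between 0.755% and 0.838% of it, oan-miR-146a-5p between 0.717% and 0.824%, and mmu-miR-146a-5p between 0.346% and 0.392%. Set against dre-miR-146a in place of dre-miR-146b, the same 3 sets varied 5.31-fold, 5.54-fold and 4.93-fold between libraries. Their fold changes therefore repeat that of dre-miR-146b. Whether they are molecules of their own or reads of dre-miR-146b with a changed base was not tested.

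**Figure D3:**
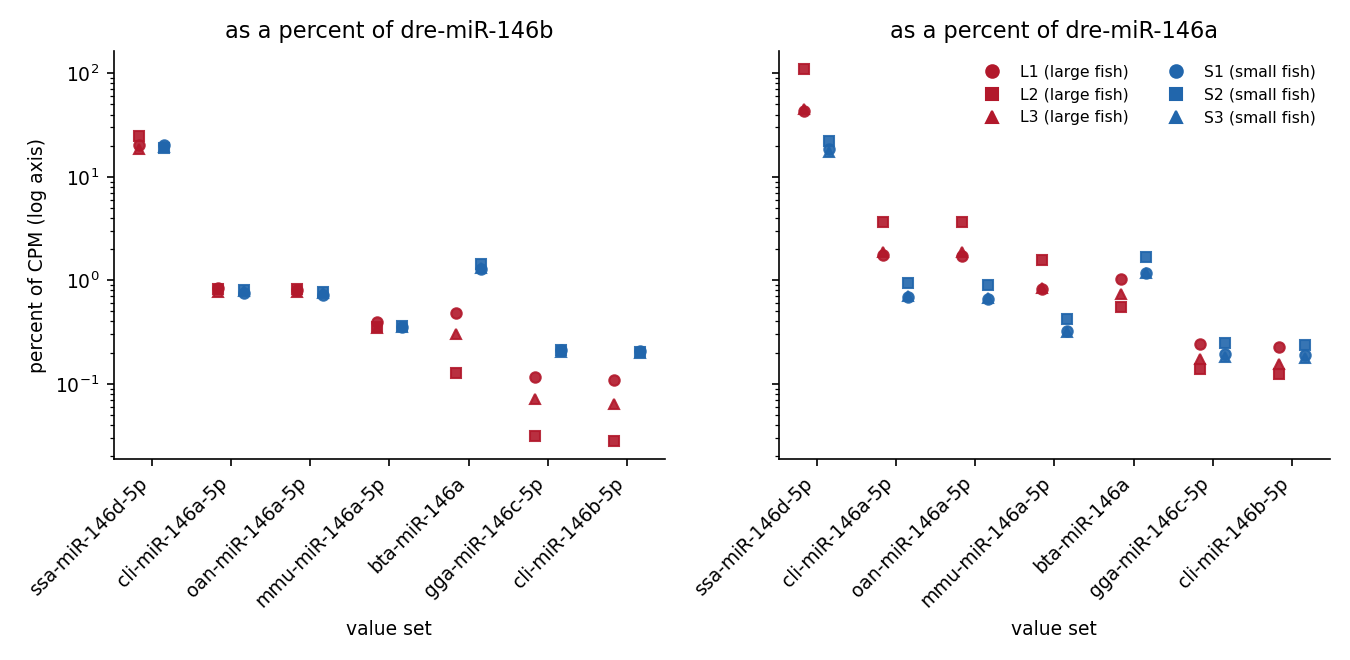
Level of 7 sets of miR-146-5p as a percent of dre-miR-146b (left) and of dre-miR-146a (right) in each library, on a log axis, red for large fish and blue for small fish. On the left the first 4 sets keep 1 level in all 6 libraries and the other 3 are lower in large fish. On the right the first 4 sets are higher in large fish.

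dre-miR-146a was about as abundant as dre-miR-146b in small fish and was not detectably different between the groups. It was at 3829 CPM in L1, 6078 in L2 and 3171 in L3, and at 5167 CPM in S1, 4001 in S2 and 5334 in S3. The groups overlapped, since L2 was the highest library of all and L3 the lowest. The means were 4359 ± 1524 CPM in large fish and 4834 ± 726 CPM in small fish (SD, n = 3). The log2 fold change was -0.19 (SE 0.28, 95% interval -0.85 to 0.47) with an adjusted p of 0.670 (limma), and 0.07 above the median of all entries. The sign turned after TMM scaling, to 0.06, but not after quantile normalization, at -0.14. L2 was at 1.74 times the mean of L1 and L3, against 3.40 times for dre-miR-146b. The entries abu-miR-146, ola-miR-146a-5p and ssa-miR-146b-5p had nearly the same counts, within 0.217% of dre-miR-146a in each library. ssa-miR-146b-5p is the 1 member of miR-146-5p with another letter in the shared body (T12G), and that letter did not separate its counts.

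The forms with TAGGT near the 3′ end were lower in large fish. bta-miR-146a and xtr-miR-146a held the same counts, and xla-miR-146a-5p, which differs from dre-miR-146a by A20G alone, differed from them by 1 count in S2. bta-miR-146a had 39.3, 33.9 and 23.5 CPM in L1 to L3, against 60.6, 66.7 and 62.9 CPM in S1 to S3. The groups did not overlap, and L2 was not high. The means were 32.2 ± 8.03 CPM and 63.4 ± 3.10 CPM (SD, n = 3). The log2 fold change was -0.98 (SE 0.25) with an adjusted p of 0.0386 (limma), or -0.72 relative to the median of all entries. The counts in L3 were 153, with a 95% Wilson interval of 20.04 to 27.5 CPM, and those in S2 were 769, with an interval of 62.2 to 71.6 CPM. The call was lost under 13 of 19 alternatives, with adjusted p up to 0.147. Without L1 the log2 fold change was -1.14 (adjusted p 0.0693), without L2 -1.04 (0.0731) and without S1 -1.02 (0.103, all limma). Without S2 it was -0.95 (0.0974) and without S3 -0.99 (0.112, both limma). In these runs the fold was nearly the same while the call was lost. Without L3 it was -0.78 and the call was kept (adjusted p 0.0424, limma). The fold shrank and the call was lost after TMM scaling (-0.74) and quantile normalization (-0.61). The same held with DESeq2 (-0.69) and each edgeR test (-0.72). Calls over the whole table fell too, to 0.0553% of all entries lower without L1, 0% without L2 and 0.775% without S3. As a share of dre-miR-146a, bta-miR-146a was at 1.03%, 0.558% and 0.740% in L1 to L3 and at 1.17%, 1.67% and 1.18% in S1 to S3.

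The forms of mammalian miR-146b, with TAGGC, were rare. The set of cli-miR-146b-5p held 8 names, hsa-miR-146b-5p and mmu-miR-146b-5p among them, with 32 to 110 counts in a library. It was at 8.72, 7.57 and 4.91 CPM in large fish and 9.87, 9.54 and 9.41 CPM in small fish. The groups did not overlap, but the 95% Wilson intervals of L1 (6.54 to 11.6 CPM) and S3 (7.45 to 11.9 CPM) did. The log2 fold change was -0.43 with an adjusted p of 0.310 (limma), and ocu-miR-146b-5p differed from the set by 1 count. Other rare forms do not carry TAGGC. gga-miR-146c-5p and xtr-miR-146b, with TGGACT from base 17, held the same counts. They lay at 9.29, 8.48 and 5.52 CPM in large fish and 10.0, 9.89 and 9.68 CPM in small fish. Their log2 fold change was -0.34 with an adjusted p of 0.415 (limma). The direction of cli-miR-146b-5p, ocu-miR-146b-5p and gga-miR-146c-5p turned after quantile normalization, to values between 0.01 and 0.09. cpi-miR-146a-5p, with TGTGTTG from base 17, had 5 to 12 counts in a library, at 0.521 to 1.71 CPM.

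The 3p arm, which is the strand of the hairpin that is usually discarded, was near the limit of detection. ssa-miR-146a-3p had 4, 12 and 15 counts in large fish and 14, 10 and 0 counts in small fish. The 0 in S3 allows up to 0.403 CPM, which covers counting error only. Its log2 fold change was 0.46 (SE 0.47) with an adjusted p of 0.553 (limma), and no difference was detectable at this depth. gmo-miR-146-3p had 3 counts in S2 and 0 in the other 5 libraries.

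The balance between both abundant forms of miR-146 differed between the groups in every library. The ratio of dre-miR-146b to dre-miR-146a does not depend on the library total or on any scaling of a whole library. It was 2.11 in L1, 4.42 in L2 and 2.43 in L3, and 0.917 in S1, 1.17 in S2 and 0.898 in S3. The groups did not overlap, and dre-miR-146b exceeded dre-miR-146a at least 2.11-fold in each large fish library while both were close to equal in small fish. The difference of the mean log2 ratios was 1.52, which is 2.87-fold, with a two-sided exact permutation p of 0.1. This is the smallest p that 3 against 3 libraries can give, so the design cannot reach 0.05, and adjusted over the 2 ratios computed it was also 0.1. Without L2 the difference was 1.20.

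**Figure D4:**
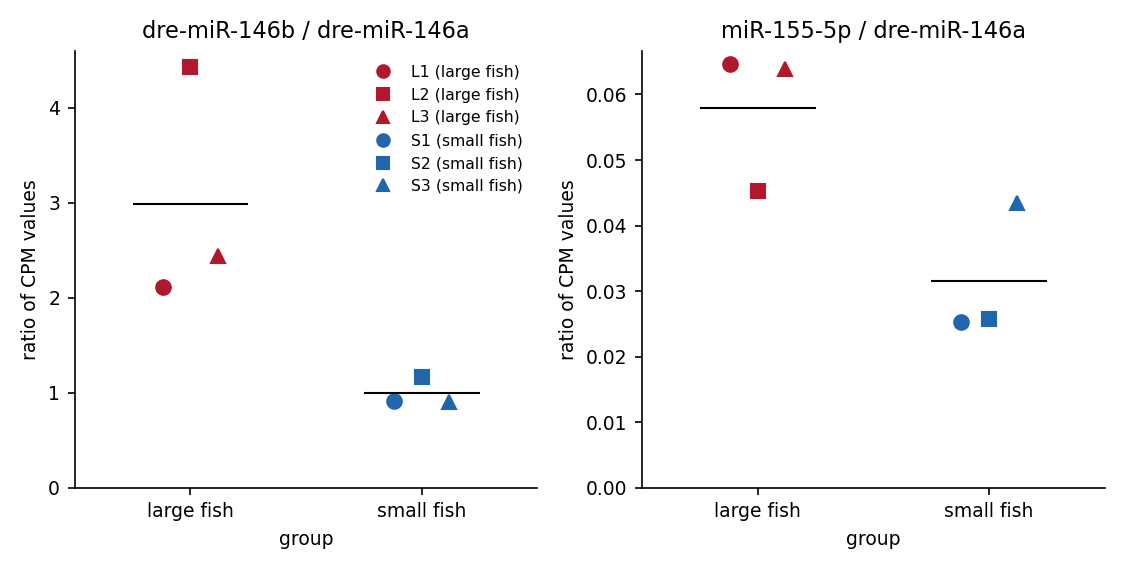
Ratio of CPM values in each library, with the mean of each group as a line, for dre-miR-146b over dre-miR-146a (left) and miR-155-5p over dre-miR-146a (right). On the left the large fish libraries lie between 2.11 and 4.42 and the small fish libraries between 0.898 and 1.17. On the right the lowest large fish library, L2 at 0.0452, is close to the highest small fish library, S3 at 0.0434.

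miR-155-5p was higher in large fish on average, but 1 small fish library lay within the range of large fish. The entry with the highest mean, efu-miR-155, was at 248 CPM in L1, 275 in L2 and 203 in L3, and at 131 CPM in S1, 103 in S2 and 231 in S3. S3 lay above L3, while S1 and S2 lay below every large fish library. Counting error is smaller than this, since the 95% Wilson interval was 221 to 243 CPM in S3 and 192 to 214 CPM in L3. The means were 242 ± 36.4 CPM and 155.1 ± 67.6 CPM (SD, n = 3). The log2 fold change was 0.71 (SE 0.33, 95% interval -0.06 to 1.48), or 0.97 above the median of all entries, with an adjusted p of 0.177 (limma). Among the alternatives efu-miR-155 passed only after quantile normalization, with 1.29 and an adjusted p of 0.0402. Without S3 it was 1.04 with an adjusted p of 0.0918. L2, which stood apart for dre-miR-146b, was at 1.22 times the mean of L1 and L3.

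The other sets of miR-155 followed efu-miR-155. cin-miR-155, with C12A, was at 117, 108 and 72.1 CPM in large fish and 48.5, 41.3 and 87.2 CPM in small fish, with a log2 fold change of 0.78 and an adjusted p of 0.166 (limma), and it passed with DESeq2 (1.04, adjusted p 0.0395) and after quantile normalization (1.34, adjusted p 0.0494). pbv-miR-155a-5p, with C12T and G21T, was at 62.8, 59.9 and 34.99 CPM in large fish and 25.7, 24.3 and 46.9 CPM in small fish, with 0.70 and 0.207. In both, S3 exceeded L3, as for efu-miR-155. They stood at 35.6% to 47.2% and 17.3% to 25.3% of efu-miR-155.

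Within a library, miR-155-5p was 0.0647, 0.0452 and 0.0639 times dre-miR-146a in L1 to L3, and 0.0253, 0.0257 and 0.0434 times in S1, S2 and S3. The groups did not overlap, but L2 and S3 were nearly equal. The difference of the mean log2 ratios was 0.90, which is 1.87-fold, with a two-sided exact permutation p of 0.1, again the smallest possible.

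In all 3 large fish libraries dre-miR-146b was above dre-miR-146a and both were above efu-miR-155. Other members changed places, since ssa-miR-146d-5p was at 109% of dre-miR-146a in L2 and at 42.9% and 44.9% of it in L1 and L3. In small fish, dre-miR-146a was the higher of the pair in S1 and S3 and dre-miR-146b in S2. Of the 4 entries in the plot of settings, dre-miR-146b and miR-155-5p remained above 0 under every setting and bta-miR-146a below 0, while dre-miR-146a crossed 0.

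**Figure D5:**
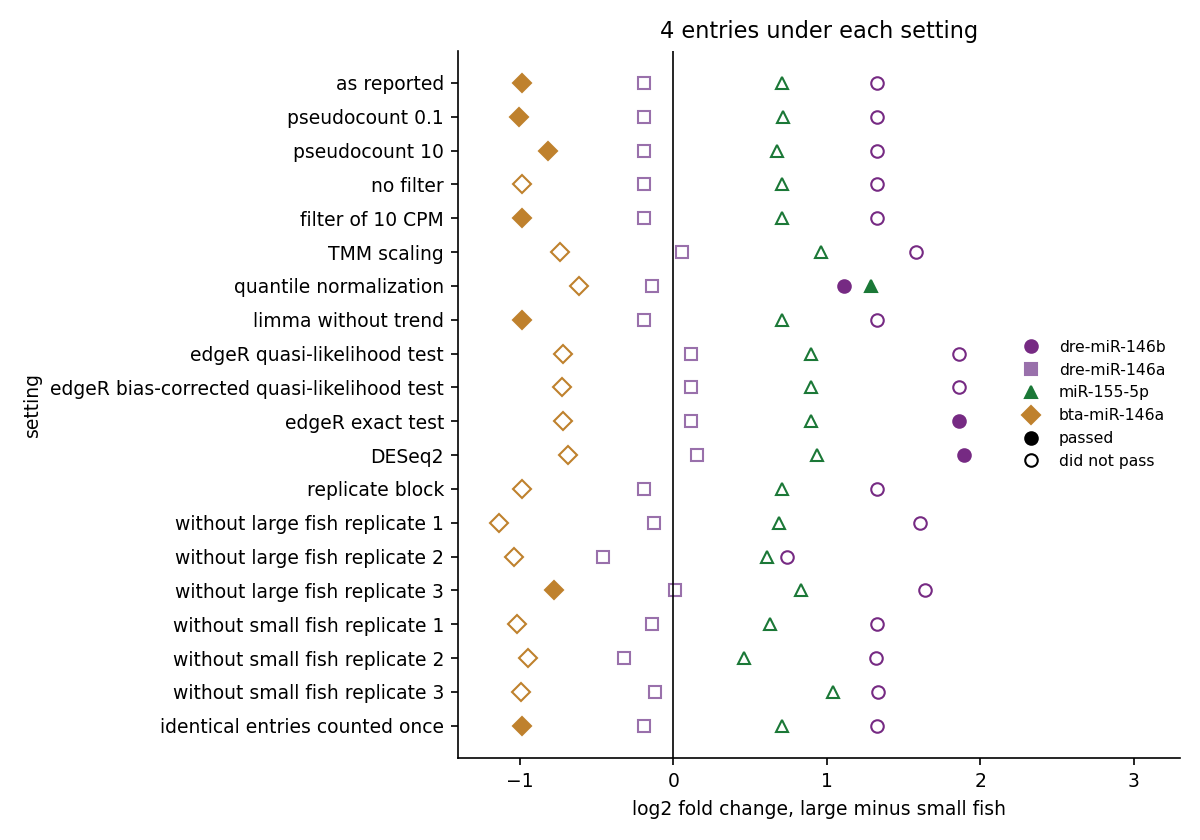
Log2 fold change (large minus small fish) of dre-miR-146b, dre-miR-146a, miR-155-5p and bta-miR-146a under the reported setting (top) and 19 alternatives. Filled points passed. dre-miR-146b ranges from 0.74, without large fish replicate 2, to 1.89, with DESeq2, and dre-miR-146a from -0.46 to 0.15.

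The families whose levels over the 6 libraries were most like each member were ranked among 74 families with at least 100 CPM in 1 library or more, by the root mean square difference of log2(CPM + 1) after centring. Closest to dre-miR-146b were miR-142, at 0.41, miR-223, at 0.47, and miR-15, at 0.49, beside a median of 1.05 over all 74. miR-142 and miR-223 are known from blood cells of the haematopoietic and myeloid lines. Closest to dre-miR-146a were miR-218, at 0.23, and miR-103 and miR-107, both at 0.27, beside a median of 0.58. For efu-miR-155 the nearest were miR-92, miR-1338 and miR-1388, all at 0.24, beside a median of 0.71. The values of miR-103 and miR-107 were nearly the same in each library, and those of miR-1338 and miR-1388 ran in parallel. They may therefore not be separate matches, and whether they share reads was not tested. The 6 libraries share the group difference, so these distances describe the libraries and nothing more.

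Of 6 other families known to be induced by toll-like receptor or NF-kappaB signalling, 5 were tested (miR-9, miR-21, miR-132, miR-187 and miR-212), and 0 passed with limma, beside 17% of all tested entries in either direction. At an unadjusted p below 0.05 there were 2, miR-21 and miR-132, which lay on opposite sides of 0. The share of all entries at this threshold is not given. The exact test of edgeR called 1 (beside 8.02% of all entries higher and 11.4% lower). DESeq2 also called 1 (beside 9.68% higher and 10.8% lower). The most abundant, miR-21, was at 22842, 35977 and 19740 CPM in large fish and 17571, 13161 and 18278 CPM in small fish, with a log2 fold change of 0.65 and an adjusted p of 0.151 (limma), and L2 was again the highest library. miR-132 was at 4.83 ± 1.69 CPM in large fish and 10.3 ± 1.16 CPM in small fish, with -0.995 and an adjusted p of 0.0579. The median of the list was -0.33, beside -0.26 over all entries. Of the families that respond to interferon in teleosts, miR-731 rose (1061 ± 254 against 394 ± 143 CPM, log2 fold change 1.47, adjusted p 0.0307, limma), and miR-462 was at 16530 ± 3384 against 9135 ± 1934 CPM with an adjusted p of 0.0524. Of 4 families linked to restraint of inflammatory signalling, 3 were tested and 0 passed with limma, beside 17% of all tested entries in either direction. The median of the 3 was -0.11, beside -0.26 over all entries. The most abundant, let-7, was at 12548 ± 565 against 9842 ± 930 CPM with an adjusted p of 0.195 (limma). The others tested, miR-125 and miR-203, lay below 0, with log2 fold changes of -0.11 and -2.01 and adjusted p of 0.784 and 0.218 (limma). miR-203 varied widely, at 143 ± 35.1 CPM in large fish and 1047 ± 1053 CPM in small fish. Its groups overlapped, since S2, at 93.5 CPM, lay below every large fish library. Of this list edgeR's exact test called 1 and DESeq2 called 2, beside the shares of all entries given above.

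Among markers of blood cells and tissues, families of white blood cells and of skeletal muscle passed with limma. Of 4 families of white blood cells, 3 were higher in large fish (miR-142, miR-150 and miR-223), beside 2.82% of all tested entries. The fourth, miR-181, did not pass and lay the other way, at 120 ± 14.5 against 172 ± 33.7 CPM. Its log2 fold change was -0.50 with an adjusted p of 0.185 (limma). miR-150, a lymphocyte miRNA, was at 4586 ± 625 against 1223 ± 338 CPM, with a log2 fold change of 1.94 and an adjusted p of 0.0138 (limma). The 4 families summed to 10786, 11804 and 9498 CPM in L1 to L3 and to 4697, 3416 and 4434 CPM in S1 to S3. The families did not share 1 order over the large fish libraries. miR-142 was at 3148, 4618 and 2628 CPM in L1 to L3, with L2 highest as for dre-miR-146b, and miR-150 was at 5273, 4050 and 4436 CPM, with L2 lowest. All 3 families of skeletal muscle were lower in large fish, beside 14.2% of all tested entries. Their summed level was 2374 to 6609 CPM against 10585 to 17496 CPM, and the most abundant, miR-206, had a log2 fold change of -1.95 (adjusted p 0.0206, limma). The quasi-likelihood test of edgeR called 2 of the white blood cell families, 0 of the muscle families and 0 of the interferon families, while its exact test and DESeq2 called 3, 3 and 2. Over all entries the quasi-likelihood test called 1.33% higher and 1.22% lower, the exact test 8.02% and 11.4%, and DESeq2 9.68% and 10.8%. The summed level of the erythroid families was 3118 to 3275 CPM in large fish and 1411 to 3344 CPM in small fish, with the lowest value in S3, and its most abundant family, miR-451, was at 2690.2 ± 151 against 2056 ± 815 CPM (SD, n = 3). Endothelium and thrombocytes lay at 7784 to 14982 against 9400 to 14061 CPM, liver at 115 to 310 against 207 to 358 CPM and neurons at 570 to 589 against 441 to 543 CPM. Their most abundant families were miR-126 (10449 ± 3588 against 10391 ± 2734 CPM), miR-122 (160.5 ± 87.4 against 227 ± 33.4 CPM) and miR-128 (579 ± 9.55 against 473 ± 61.4 CPM), and none of these passed with limma. The neuron sum was mostly miR-128, and the other families of that list, miR-9 and miR-124, lay the other way. miR-9 was at 2.45 ± 1.05 against 14.4 ± 17.2 CPM and did not pass. miR-124, which was not tested, was at 0 CPM in each large fish library and at 0.521 to 13.2 CPM in small fish. Over the 6 lists with 0 families that passed limma, 17 families were tested, of which 2 had an unadjusted p below 0.05. These were miR-21 and miR-132, already counted above, and the share of all entries at this threshold is not given. The quasi-likelihood test of edgeR called 0 of the 17, its exact test 2 and DESeq2 4, beside the shares of all entries given above. The part of the white blood cell and muscle markers in the levels of miR-146 and miR-155 was not tested.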

How the data were processed

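The authors made libraries from 3 ng of exosomal RNA with unique molecular identifiers, removed other RNA classes with Bowtie, matched reads to miRBase and the grass carp genome, and counted reads of 1 identifier once. The deposited values are CPM of known and newly predicted miRNAs, with no length normalization. Whole counts were recovered from the step of each library (100% of values, tolerance 0.02). Counts of near-identical names can overlap. Wilson intervals (95%) and the floor of 3 counts cover counting error only. Values were tested with limma 3.58.1 in R 4.3.3, with edgeR 4.0.16 and DESeq2 1.42.0 run on the recovered counts as alternatives. Further alternatives were other pseudocounts, filters, scalings, a replicate block, each library left out and identical entries counted once. The bias-corrected quasi-likelihood test was chosen after seeing the data.

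Every set of member values was named, with the 3 nearest families of dre-miR-146b, dre-miR-146a and efu-miR-155 and, of each list, the most abundant family and those that passed. Members and the 9 lists (toll-like receptor or NF-kappaB, interferon, restraint, white blood cell, erythroid, endothelium and thrombocyte, skeletal muscle, liver, neuron) were chosen with earlier results of these data known. Genomic positions and hairpins of the miRNAs were not used here. The limma fit was tested on simulated data, and the other fits and the permutation test were not.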

Additional observations from a re-analysis of the deposited data

How the results depend on the processing

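Members called higher in large fish rose from 0 to 9 after quantile normalization (1 of miR-146 and 8 of miR-155), 7 with edgeR's exact test and 8 with DESeq2. Several of these entries share their counts, and the 8 of miR-155 were the 7 names of the efu-miR-155 set and cin-miR-155. Members called lower fell from 3 to 0 with no filter, after TMM scaling or quantile normalization, with all 3 edgeR tests and with DESeq2, and lay between 0 and 3 when 1 library was left out, with 3 only without L3. Beside these, the share of all entries called lower was 17.1% without L3, 0.0553% without L1, 0% without L2, 8.25% without S1, 8.41% without S2 and 0.775% without S3. dre-miR-146b passed after quantile normalization (1.12), with edgeR's exact test (1.86) and with DESeq2 (1.89), and lay between 0.74 and 1.64 with 1 library left out. efu-miR-155, the most abundant set of miR-155-5p, passed after quantile normalization alone (1.29), and cin-miR-155 also with DESeq2 (1.04). dre-miR-146a, abu-miR-146, ola-miR-146a-5p and ssa-miR-146b-5p turned above 0, to 0.058 after TMM scaling, 0.12 with each of the 3 edgeR tests, 0.15 with DESeq2, and ranged from -0.46 to 0.0086 with 1 library left out (above 0 without L3, and 0.0084, 0.0086 and 0.0085 for the last 3). After quantile normalization cli-miR-146b-5p turned to 0.0076, ocu-miR-146b-5p to 0.014 and gga-miR-146c-5p to 0.092. There dre-miR-146a and its near-identical sets stayed below 0, between -0.14 and -0.11. The median of all entries was -0.26 as reported and without L3, -0.05 with TMM scaling and 0.09 with quantile normalization. The cause of the changes of sign was not tested. The sets below 10 CPM could not be fitted under the filter of 10 CPM.

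Same-numbered libraries correlated at -0.05, -0.06 and 0.02 in their deviations from the group means. Differently numbered libraries correlated at -0.11 to 0.15. No pairing by replicate number was seen, but 3 libraries in each group are too few to exclude one. With a replicate block, 0 members were called lower (beside 10.1% of all entries), bta-miR-146a had an adjusted p of 0.0620 and dre-miR-146b one of 0.0769 (limma), and calls over all entries went from 308 to 207. The ratio of dre-miR-146b to dre-miR-146a kept a difference of 1.52, with an exact p of 0.25 within pairs, the smallest that 3 pairs allow.

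The pools were 3 in each group, so their number limits what can be called, and for sets under 10 CPM counting error adds to the spread between pools.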
